A study of Mus musculus with 2 samples.

Results

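Among the cells sorted from mouse spleen as CD4+ Foxp3+ regulatory T cells (Treg cells), 187 of 16424 carried the RNA of monocytes and macrophages. They were chosen by their counts of unique molecular identifiers (UMIs), each of which stands for 1 captured RNA molecule. A member had at least 1 UMI of Csf1r and at least 4 UMIs of Csf1r, Lyz2, C1qa and C1qb in sum. It also had few UMIs of neutrophil, dendritic cell, T cell and B cell genes: under 50 of S100a8 and S100a9 together, under 2 of Flt3, Siglech and Zbtb46, and at most 1 each of the Cd3 genes in sum and of Cd79a. The levels of these genes are therefore a description of how the cells were chosen. The +/+ library, from Foxp3YFP-Cre Kmt2d+/+ mice, gave 99 members of 7790 cells (1.27%, 95% exact binomial interval 1.03 to 1.55). The fl/fl library, from Foxp3YFP-Cre Kmt2dfl/fl mice, gave 88 of 8634 (1.02%, 0.818 to 1.25). These shares overlapped in their intervals, and a sort for T cells can set them.

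Each library was a pool of sorted cells from 3 mice, and there was 1 library per genotype. Both genotypes carried Cre recombinase fused to a yellow fluorescent protein reporter under the control of the Foxp3 gene, and the fl/fl mice also had both copies of Kmt2d floxed. Foxp3 is the defining transcription factor of Treg cells, and Kmt2d encodes a histone H3 lysine 4 methyltransferase. The ages and sexes of the mice were not given in the sources used here. With 1 library a genotype no test between genotypes could be made, so values are set side by side, and every interval covers counting error only.

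Monocytes leave the bone marrow as classical cells that carry Ly6C and the chemokine receptor CCR2. Some become nonclassical cells, which patrol the vessel wall and depend on the transcription factor NR4A1. In the spleen, red pulp macrophages engulf aged erythrocytes, break down their heme with heme oxygenase 1 and export the iron through ferroportin. Tissue macrophages also make C1q, the recognition unit of the classical complement pathway, and the growth factor receptor CSF1R keeps the lineage alive.

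The genes of the 3 C1q chains lie side by side on the minus strand of chromosome 4 (GRCm38). They are C1qb (136880129 to 136886187), C1qc (136889804 to 136893065) and C1qa (136895917 to 136898803). Ly6c2, one of the genes of the Ly6C antigen, lies on chromosome 15 (75108158 to 75111970, minus strand). C1q and Ly6c2 counts separated most of the members, so the 250 bases before a RefSeq start of C1qb (chr4:136886201-136886450, minus strand) and of Ly6c2 (chr15:75111972-75112221, minus strand) are shown, from GRCm38.p6. Capitals mark a match to 1 of 2 motifs searched on both strands. These were the letters TGCTGA, at 131 to 126 bases before the start of C1qb, and the GAGGAAGT core of a PU.1 site, at 108 to 101 bases before this start of Ly6c2. The table has another start of Ly6c2, whose window holds that core and a further match at 8 to 1 bases before it.
C1qb: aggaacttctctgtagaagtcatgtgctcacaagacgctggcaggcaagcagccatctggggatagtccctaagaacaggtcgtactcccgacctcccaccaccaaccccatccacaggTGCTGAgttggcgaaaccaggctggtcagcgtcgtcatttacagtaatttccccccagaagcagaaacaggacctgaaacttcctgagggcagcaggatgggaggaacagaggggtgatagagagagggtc
Ly6c2: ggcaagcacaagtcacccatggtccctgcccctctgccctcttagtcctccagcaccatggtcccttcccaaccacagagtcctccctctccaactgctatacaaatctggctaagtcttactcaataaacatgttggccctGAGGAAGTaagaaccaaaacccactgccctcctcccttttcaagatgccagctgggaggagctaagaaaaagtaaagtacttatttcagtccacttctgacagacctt
TGCTGA was found in 5279 of 32817 promoters of this length (16.1%) and GAGGAAGT in 801 (2.44%). A match describes the letters only and does not show binding.

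The members bore little RNA of the sorted cell type. The 13 T cell markers were at 89.1 CPM (counts scaled so that each sum over a set of cells has the same total) in +/+ members and 46.7 CPM in fl/fl members, against 9260 and 8199 CPM in the T cells of the same libraries. Foxp3 had 1 UMI in all +/+ members and 0 in fl/fl members, and Lck, a T cell kinase, had the same counts. The B cell markers summed to 406 and 217 CPM, and the neutrophil markers to 1255 and 334 CPM. These lists hold the Cd3 genes, Cd79a, S100a8 and S100a9, which the choice of members limited, and the T cells were chosen by Cd3 UMIs. The T cell, B cell and neutrophil sums are thus partly set by the choice, which did not use Foxp3 or Lck. The erythroid markers summed to 2479 and 11243 CPM, and 1 fl/fl barcode carried 6703 hemoglobin UMIs, 66.3% of all its UMIs. None of the members shared its barcode with the other library, and 15 barcodes were in both libraries. A doublet caller marked 2 +/+ members and 0 fl/fl members, and these were kept.

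Members near the limits of the choice were few on most sides. Csf1r stood at its minimum of 1 UMI in 18 +/+ and 20 fl/fl members, and 28 and 22 cells that met every other condition had 0. No member had the minimum marker sum of 4, and 2 and 1 cells stood just outside at 3. The Cd3 sum was at its limit of 1 in 8 and 5 members, and 0 and 1 cells stood just outside at 2. The dendritic cell sum was at 1 in 18 and 7 members, and at 2, just outside, in 8 and 1 cells.

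Counts were deep for most members. The median was 7468 UMIs a cell in +/+ (876 to 56881) and 5453.5 in fl/fl (959 to 37696), with 875886 and 599683 UMIs in all. A few very deep cells weighed heavily on the sums: 6 +/+ cells and 2 fl/fl cells with at least 5 UMIs of the neutrophil and monocyte precursor granule genes Prtn3, Elane, Mpo and Ctsg held 29.3% and 12.2% of the UMIs.

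C1q and Ly6c2 divided the members into ranges of counts, which are not cell types. With 10 or more UMIs of C1qa, C1qb and C1qc, 49 +/+ members (49.5%, 39.3 to 59.7) and 21 fl/fl members (23.9%, 15.4 to 34.1) were C1q-high. Of the C1q-low members, 37 +/+ (37.4%, 27.9 to 47.7) and 31 fl/fl (35.2%, 25.3 to 46.1) had 3 or more Ly6c2 UMIs. The remaining 13 +/+ (13.1%, 7.18 to 21.4) and 36 fl/fl members (40.9%, 30.5 to 51.9) were low in both. In the fl/fl library the C1q-high share was the lower and the share low in both was the higher of the 2. C1qa and C1qb helped to choose the members, and 25 of the 49 and 5 of the 21 C1q-high members had no Lyz2 UMI, so these shares only describe the cells chosen.

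C1q and Ly6c2 rarely stood together. Of the C1q-high members, 42 of 49 and 17 of 21 had no Ly6c2 UMI, and 5 and 2 had 3 or more. No C1q UMI was found in 40 +/+ and 54 fl/fl members. Near the C1q minimum, 3 members of each library had 5 to 9 C1q UMIs, and 11 and 4 had 10 to 14. Near the Ly6c2 minimum, 4 and 9 C1q-low members had 1 or 2 Ly6c2 UMIs, and 4 and 2 had 3 to 5. The ranges differed in depth, since a C1q-high cell had a median of 2678 UMIs in +/+ and 1852 in fl/fl, while a Ly6c2-high cell had 10204 and 9400. All 20 +/+ members and 11 of the 14 fl/fl members under 2000 UMIs were C1q-high. With every cell thinned to 2000 UMIs and a C1q minimum of 3, which left out those 20 and 14 cells, the C1q-high shares were 34.2% and 10.8%.

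**Figure D1:**
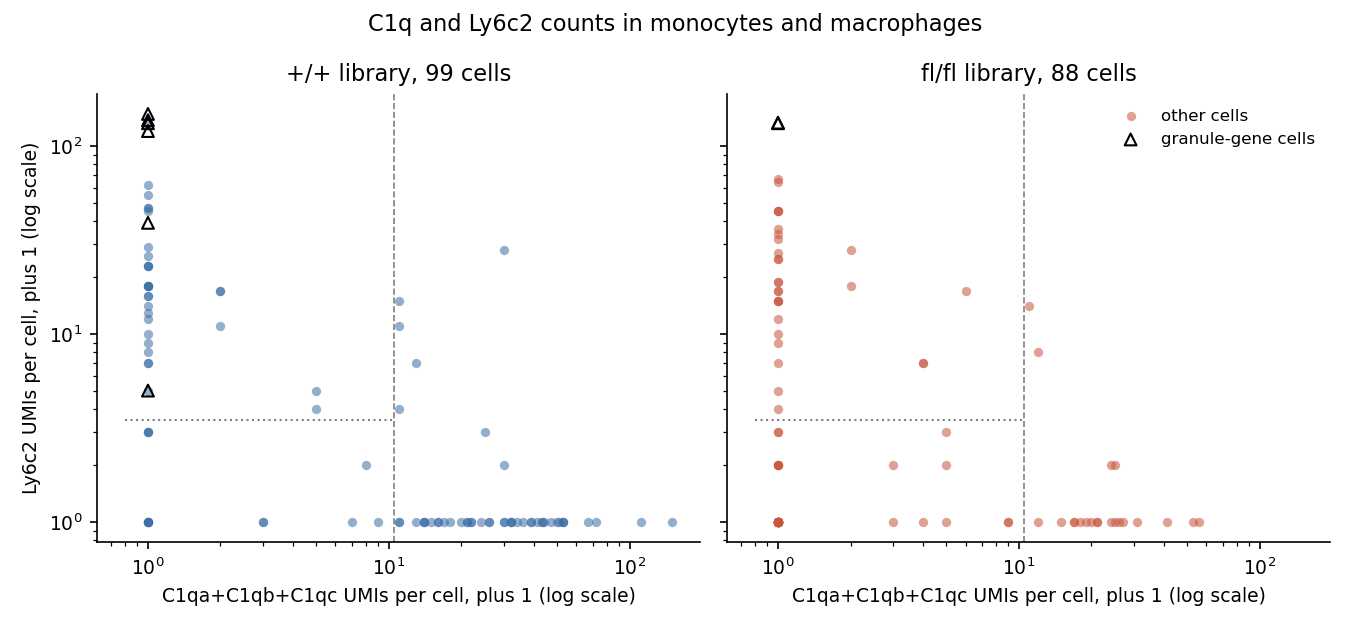
UMIs of Ly6c2 against the summed UMIs of C1qa, C1qb and C1qc, each plus 1 on log axes, for the 99 +/+ and 88 fl/fl monocytes and macrophages (points). The dashed line marks the C1q minimum of 10 and the dotted line the Ly6c2 minimum of 3. Open triangles are the 6 and 2 cells with granule genes, and few cells are high for both C1q and Ly6c2.

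Clustering of the 187 members gave 7 clusters, described here by their leading genes, which are no test because they shaped the clusters. Genes that differed at least 1.5-fold between the T cells of the libraries, 582 in all, were kept out of the clustering. Levels in this and the next 3 paragraphs are means of the per-cell CPM over both libraries. Cluster 1 (56 cells) was classical monocyte-like. It was led by Chil3, a secreted chitinase-like protein, at 1679 CPM against 93 in the other members, and by Fn1, the matrix protein fibronectin, at 1100 against 60. Ly6c2 stood at 2550 CPM there against 307 elsewhere. Cluster 4 (10 cells) was led by the granule protease genes Prtn3, at 3936 CPM against 10, and Elane, at 2426 against 0, together with Top2a, a gene of dividing cells, and it was left unnamed.

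Cluster 6 (33 cells) was nonclassical monocyte-like. Its leading genes were Dusp16, a phosphatase of stress-activated kinases, at 1714 CPM against 55, Vegfc, a vessel growth factor, at 277 against 1, and Cd36, a scavenger receptor, at 524 against 19. Nr4a1 was at 1667 CPM in cluster 6 and at 629 in cluster 1. Ace, the angiotensin-converting enzyme, was at 361 CPM in cluster 6 and 12 in cluster 1, and the Fc receptor gene Fcgr4 at 562 and 25. Cebpb, a transcription factor of the lineage, was highest in cluster 6 at 5200 CPM, beside 2611 in cluster 1.

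Cluster 2 (29 cells) was red pulp macrophage-like and led by Fcna, a ficolin, at 1540 CPM against 59, Cd5l, a macrophage survival factor, at 1201 against 57, and Trf, the gene of the iron carrier transferrin, at 2365 against 183. Cluster 5 (12 cells) had the same red pulp genes at like levels. Vcam1 was at 4621 CPM in cluster 2 and 5395 in cluster 5, Hmox1 (heme oxygenase 1) at 4928 and 5472, Slc40a1 (ferroportin) at 2109 and 2864, and Spic, the red pulp transcription factor, at 705 and 1057. None of the red pulp list was among the 10 leading genes of cluster 5, which stayed unnamed. Those were mostly long genes, among them Ptprm, a receptor phosphatase, at 2694 CPM against 11, and Mertk, a receptor for apoptotic cells, at 2002 against 52. Bank1, a B cell marker, was also among them, at 1304 CPM against 46, and the B cell markers summed to 1729 CPM in cluster 5, the highest of the 7 clusters. The lysozyme gene Lyz2 was low in both, at 858 and 738 CPM, against 23635 in cluster 1.

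Clusters 0 and 3 had no cell type list that led them and stayed unnamed. Cluster 0 (18 cells) had C1qa at 5645 CPM, close to the 6706 of cluster 2, but Vcam1 at 709 and no Slc40a1. It had the highest Lyz2 (47040 CPM) and Apoe (21651 CPM, a lipid carrier), and was led by Lyz1, at 2674 CPM against 28, and Pla2g2d, a secreted phospholipase, at 1905 against 51. Cd4 was at 634 CPM in cluster 0 against 21 elsewhere, although these cells had passed the limit on Cd3 UMIs. Timd4, a receptor for phosphatidylserine, was at 576 CPM there and 286 in cluster 2. Cluster 3 (29 cells) was led by genes of antigen presentation on MHC class II, with H2-Eb1 at 5480 CPM against 886, H2-Aa at 5429 against 1020, and Ciita, their master regulator, at 134 against 8. It also had the highest sum of conventional dendritic cell markers, 753 CPM with all 12 genes detected, against 150.5 to 359 in the other clusters. That list holds Flt3 and Zbtb46, which the choice of members limited and by which dendritic cells were chosen. In summed counts, dendritic cells had 1709 CPM of the list in +/+ and 1899 in fl/fl. Marco, a marker of marginal zone macrophages, was at 117 CPM in cluster 2 and at 0 in clusters 0, 5 and 6.

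**Figure D2:**
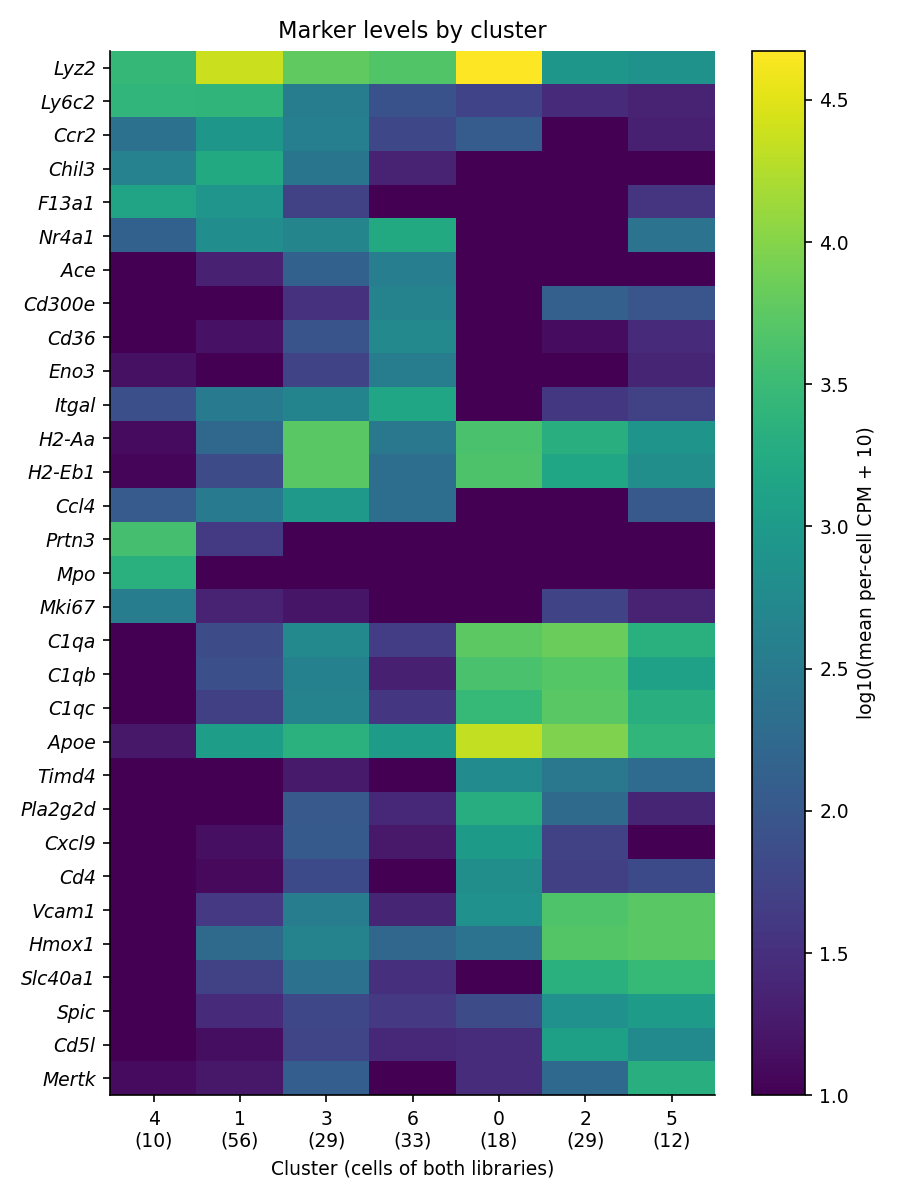
Mean per-cell CPM, as log10 of the level plus 10, of 31 marker genes (rows) in the 7 clusters (columns, with their numbers of cells over both libraries). Clusters 2 and 5 share Vcam1, Hmox1, Slc40a1 and Spic, cluster 0 has C1q and Apoe with no Slc40a1, and cluster 6 has Nr4a1, Ace and Cd300e.

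The clusters took different shares of the 2 libraries. Cluster 6 held 3 +/+ members (3.03%, 0.629 to 8.60) and 30 fl/fl members (34.1%, 24.3 to 45.0). Cluster 5 held 11 (11.1%, 5.68 to 19.0) and 1 (1.14%, 0.0288 to 6.17). Each of these came almost wholly from 1 library, so a cell state and a trait of that library cannot be told apart there. Cluster 1 held 34 (34.3%, 25.1 to 44.6) and 22 (25%, 16.4 to 35.4), and cluster 2 held 21 (21.2%, 13.6 to 30.6) and 8 (9.09%, 4.01 to 17.1). Cluster 0 had 9 members from each library, cluster 3 had 13 and 16, and cluster 4 had 8 and 2. 

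**Figure D3:**
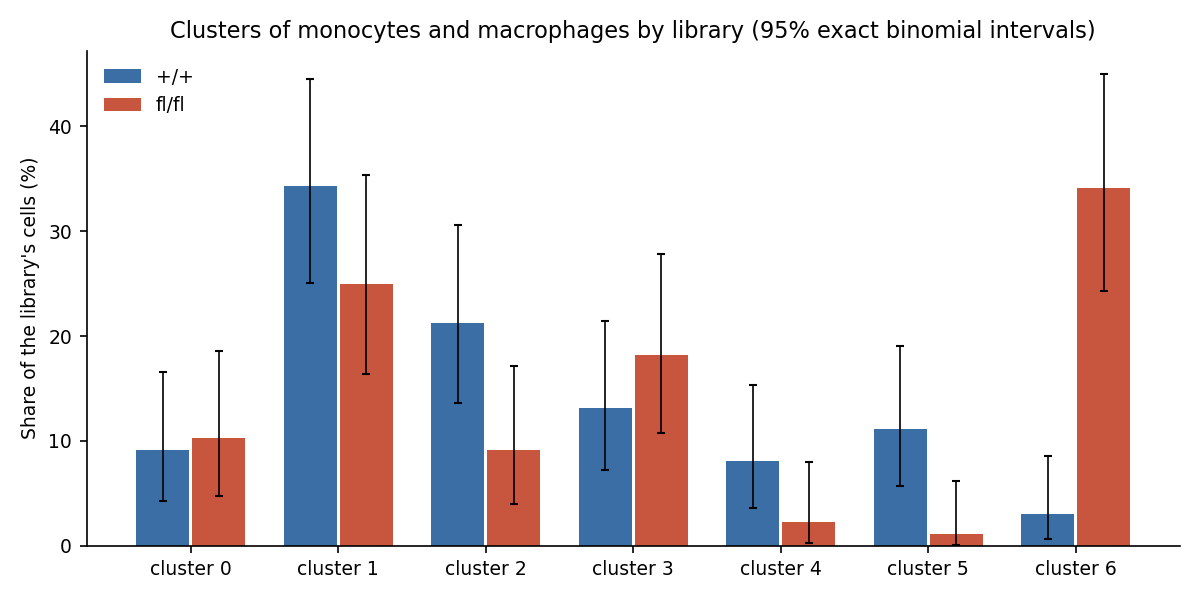
Share of each library's monocytes and macrophages (y axis, percent) in each of the 7 clusters, with 95% exact binomial intervals as error bars, for +/+ (99 cells) and fl/fl (88 cells). Cluster 6 holds 34.1% of fl/fl and 3.03% of +/+ members, and cluster 5 holds 1.14% and 11.1%.

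Many C1q-high barcodes lacked Malat1, a long noncoding RNA that stays in the nucleus and is abundant in nearly all cells. Malat1 had 0 UMIs in 25 of 49 C1q-high members in +/+ (51.0%, 36.3 to 65.6) and in 13 of 21 in fl/fl (61.9%, 38.4 to 81.9). It was at 0 in none of the 37 and 31 Ly6c2-high members, which allows shares of up to 8.11% and 9.68% by a limit of 3 counts, or 9.49% and 11.2% by the exact interval. By cluster it was at 0 in 15 of 18 cells of cluster 0 and 25 of 29 of cluster 2, and in none of the other 5 clusters. Neat1, another nuclear RNA, was at 0 in all 47 cells of clusters 0 and 2.

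Other cells under 3000 UMIs had zeros less often, but their depth was not matched. Among C1q-high members under 3000 UMIs, 36 of 43 had no Malat1, with median depths of 1648 UMIs in +/+ and 1485 in fl/fl. Under the same limit it was at 0 in 2 of 186 +/+ and 0 of 103 fl/fl T cells (medians 2736 and 2605). The same held for 2 of 16 and 1 of 9 neutrophils (1986.5 and 2242), and for 2 of 8 C1q-low members of both libraries (2064). The part of depth in the zeros was not tested. Clusters 0 and 2 also had fewer UMIs, with medians of 1779.5 and 1362 against 4543 or more in every other cluster. The immediate-early gene Fos was at 22.7 CPM in +/+ and 0 in fl/fl C1q-high members without Malat1, and at 3386 and 2649 CPM in those with Malat1. Tmsb4x, a cytoplasmic actin-binding protein gene, was at 43898 and 46295 CPM without Malat1 and at 16316 and 29634 CPM with it. These barcodes thus had macrophage transcripts with little of the nuclear and immediate-early RNA. Cluster 5 stood at the other end, with a median of 9892 CPM of Malat1 and the lowest share of ribosomal protein RNA (median 3.77%, against 12.9% in cluster 2). Whether these barcodes are whole cells was not tested.

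**Figure D4:**
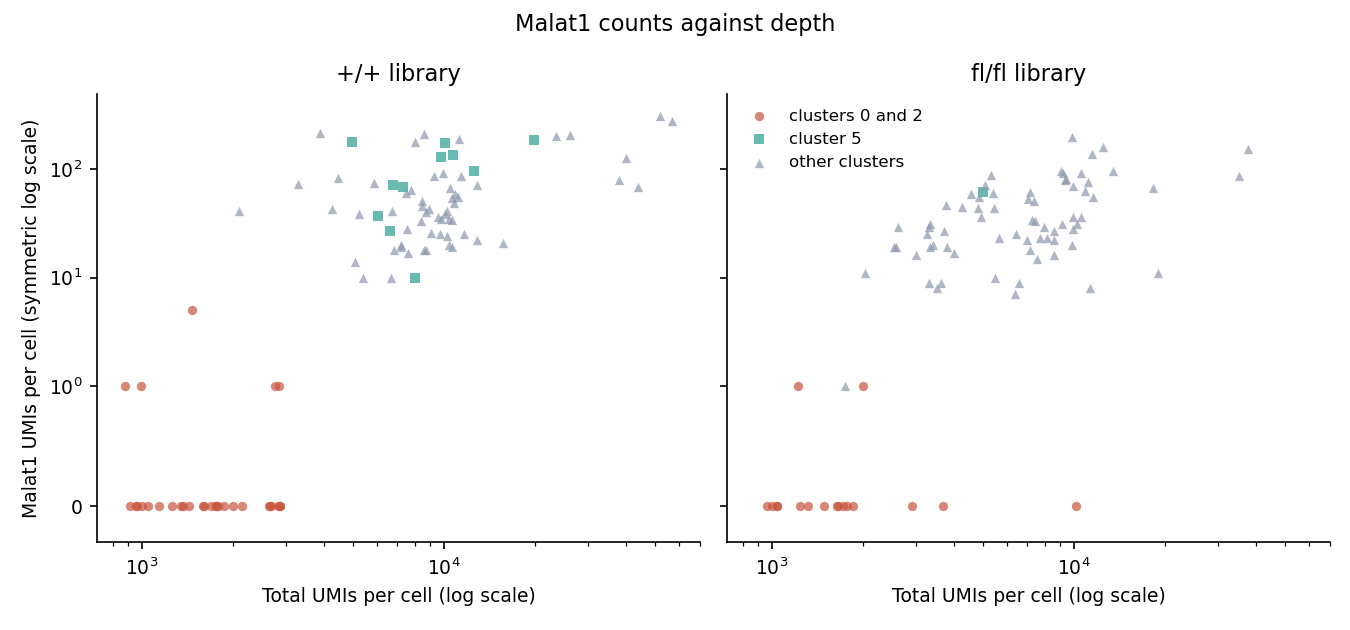
Malat1 UMIs (y axis, symmetric log scale from 0) against total UMIs (x axis, log scale) in each monocyte and macrophage of the +/+ and fl/fl libraries. Cells of clusters 0 and 2 (circles) lie mostly at 0, whereas those of cluster 5 (squares) and the other clusters (triangles) have at least 1 UMI.

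The C1q-high share was lower in the fl/fl library also among members with Malat1, at 24 of 74 in +/+ (32.4%, 22.0 to 44.3) and 8 of 73 in fl/fl (10.96%, 4.85 to 20.5). Of the 32 cells, cluster 5 held 12, cluster 3 held 8, cluster 1 held 5, cluster 2 held 4 and cluster 0 held 3. Vcam1 was at 3105 CPM in +/+ and 2081 in fl/fl C1q-high cells without Malat1, and at 3260 and 771 CPM in those with it.

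Summed over all members, 3964 genes were measured (50 CPM or more in either library). Of these, 158 were at least 2-fold higher in fl/fl with an interval that excluded equality (3.99 percent of the genes measured) and 206 were at least 2-fold lower (5.2 percent). This is a rule of size and not a test. Without the granule cells the shares were 3.53 and 5.84 percent, and among members with Malat1 4.3 and 5.58 percent. In such sums, a difference in which cells were present and a difference in the level per cell cannot be told apart. Of the genes used to choose members, Csf1r and Lyz2 differed little, while C1qa and C1qb were lower in the fl/fl sums, as was C1qc. The C1q genes also define the C1q-high range, so its share and their sums are not independent. Csf1r was at 464 CPM in +/+ and 489 in fl/fl (log2 ratio of fl/fl over +/+ 0.08, -0.15 to 0.30), and Lyz2 at 12173 and 10559 (-0.21, -0.25 to -0.16). C1qa was at 754 and 365 CPM (-1.04, -1.27 to -0.82), C1qb at 554 and 257 (-1.11) and C1qc at 566 and 282 (-1.01).

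Genes of nonclassical monocytes were higher in the fl/fl sums. The list had 14 measured genes, of which 11 passed as higher and 0 as lower, beside 3.99 and 5.2 percent of all genes measured. Its median log2 ratio was 1.58 beside -0.01 for all genes measured. Nr4a1, which these monocytes need, was at 340 CPM in +/+ and 724 in fl/fl (1.09, 0.87 to 1.31). Ace stood at 26.3 and 138 CPM (2.40, 1.72 to 3.13), Itgal, an integrin chain, at 200 and 569 (1.51, 1.24 to 1.78), and Eno3, a muscle-type enolase, at 6.9 and 105 (3.94, 2.74 to 5.44). Cd300e, an activating receptor, was at 14.8 and 107 CPM (2.85, 1.97 to 3.83). Among the largest ratios of all genes were Vegfc, with 2 and 43 UMIs (4.97, 3.03 to 8.06), Tgfbr3, with 4 and 44 (4.01), and Dusp16, at 86.8 and 497 CPM (2.52, 2.15 to 2.90).

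Dusp16 and Nr4a1 were also read within clusters. These genes shaped the clusters, so likeness within one is partly built in. Within cluster 6, with 3 +/+ and 30 fl/fl cells, Dusp16 was at 1887 and 1707 CPM (-0.14, -0.70 to 0.46) and Nr4a1 at 1366 and 1645 (0.27, -0.37 to 0.98). Nr4a1 was at 578 and 575 CPM in cluster 1 (-0.01, -0.36 to 0.35) and at 437 and 427 in cluster 3 (-0.03, -0.62 to 0.57). The part of cell numbers in the higher sums was not tested. In C1q-high members, which held no cell of cluster 6, the nonclassical list had a median of 0.94, with 3 of 11 measured genes higher and 0 lower (3.97 and 10.6 percent of all genes measured there). In Ly6c2-high members without granule cells its median was 1.19, with 7 of 11 higher and 0 lower (3.82 and 3.1 percent). In members low in both it was 0.97, with 6 of 14 higher and 0 lower (4.7 and 5.62 percent). These 2 ranges held all cells of cluster 6. The list summed to 2141 CPM in +/+ and 2262 in fl/fl C1q-high members, close together despite the median. It summed to 1459 and 2761 CPM in Ly6c2-high members without granule cells, and to 3985 and 7508 in members low in both. Dusp16 in cluster 1 went the other way, with 18 UMIs in +/+ and 3 in fl/fl (-1.82, -4.23 to -0.05).

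Classical monocyte genes stood close in the sums of the 2 libraries. The 15 measured genes had a median of -0.11, and 0 passed as higher and 1 as lower, beside 3.99 and 5.2 percent of all genes measured. Ly6c2 was at 1560 CPM in +/+ and 1591 in fl/fl (0.03, -0.09 to 0.15), Ccr2 at 435 and 379 (-0.20), and Chil3 at 670 and 617 (-0.12). The exception was F13a1, coagulation factor XIII, at 739 and 354 CPM (-1.06, -1.29 to -0.84), whose ratio within cluster 1 was -0.44. By range, the list median was -0.41 in Ly6c2-high members without granule cells, with 0 of 15 higher and 2 lower. Of all genes measured there, 3.82 percent were higher and 3.1 percent lower. It was -0.27 in members low in both, with 0 of 11 higher and 3 lower (4.7 and 5.62 percent of all). In C1q-high members it was 0.03, with 1 of 13 higher and 1 lower (3.97 and 10.6 percent of all). The list holds Ly6c2, which helped to set the ranges.

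Red pulp macrophage genes were lower in fl/fl sums. Of 14 measured list members 0 were higher and 11 at least 2-fold lower, with a median of -1.89. Vcam1, an adhesion molecule, was at 857 CPM in +/+ and 203 in fl/fl (-2.08, -2.36 to -1.80), and Spic at 164 and 31.7 (-2.38, -3.15 to -1.68). The iron genes were lower as well. Hmox1 was at 891 and 293 CPM (-1.60, -1.85 to -1.36), Slc40a1 at 404 and 112 (-1.86, -2.25 to -1.47) and Cd163, the receptor for hemoglobin bound to haptoglobin, had 45 and 2 UMIs (-3.95, -7.03 to -2.01). The mannose receptor gene Mrc1 was at 284 and 50.03 CPM (-2.51) and Itgad, an integrin chain of red pulp macrophages, at 206 and 25.01 (-3.04). Of the list, Hpgd (-0.95), Nr1h3 (-0.05) and Pparg (0.63) did not pass. Of 13 measured iron and heme genes, 5 were lower and 1, the heme-sensing repressor Bach1, was higher (1.24, 0.78 to 1.70). For both lists, the shares over all genes measured were 5.2 percent lower and 3.99 percent higher.

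Red pulp genes were also compared within C1q-high members, a range that mixes clusters, and within cluster 2. Their list median was -1.49 in C1q-high members, beside -1.89 in all members. In C1q-high members, 3983 genes were measured, of which 158 were higher (3.97 percent) and 424 lower (10.6 percent), and the median of all was -0.20. C1qa was close there, at 2811 CPM in +/+ and 2496 in fl/fl (-0.17, -0.41 to 0.06). C1qa helped to set this range, so its closeness is partly built in and gives no reference for other genes. Vcam1 was at 3230 and 1266 CPM (-1.35, -1.66 to -1.05) and Hmox1 at 3159 and 1131 (-1.48, -1.81 to -1.17), and 11 of 14 red pulp genes were at least 2-fold lower. Stress and mitochondrial RNA differed in the same cells. Immediate-early and dissociation stress genes were lower for 8 of 20 measured and higher for 0 (median -1.12, sums of 21255 and 10782 CPM), and the 11 mitochondrially encoded genes had a median of -0.61 (30631 and 19535 CPM). The stress genes also differed by cluster, with mean per-cell sums of 28965 CPM in cluster 5 and 2266 and 2086 in clusters 0 and 2. Mitochondrial sums were lower in fl/fl also in T cells (30028 and 25893 CPM), B cells, neutrophils and dendritic cells. The part of these genes in the red pulp values was not tested. Cluster 0 held 9 of the 49 +/+ and 9 of the 21 fl/fl C1q-high members, and clusters 2 and 5 together 32 and 7. In cluster 2 Vcam1 was at 4391 and 2784 CPM (-0.66, -1.14 to -0.20) and Hmox1 at 4819 and 2206 (-1.13, -1.65 to -0.63).

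The cluster 2 values turned on barcodes loaded with hemoglobin RNA. Without the cells of 50 or more hemoglobin UMIs, 19 +/+ and 7 fl/fl cells were left. Vcam1 was then at 4636 CPM in +/+ and 4928 in fl/fl (0.09, -0.43 to 0.58), Hmox1 at 4605 and 4480 (-0.04, -0.58 to 0.47), and Slc40a1 at 1916 and 1792 (-0.10, -0.99 to 0.71). C1qa remained lower, at 7603 and 4816 CPM (-0.66, -1.16 to -0.19). So in these 26 cells the red pulp genes named stood at like levels, within wide intervals. Red pulp genes led cluster 2, so likeness within it can be partly built in. Leaving out such cells from all C1q-high members moved Vcam1 little, to -1.33, and Hmox1 to -1.34.

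Of genes for the uptake of dying cells, 9 were measured, 1 higher and 3 lower, with a median of -0.34. Of all genes measured, 3.99 percent were higher and 5.2 percent lower. Mertk was at 264 CPM in +/+ and 18.3 in fl/fl (-3.85, -4.87 to -2.98), and its relative Axl at 200 and 63.4 (-1.66, -2.20 to -1.14). Cd36 went the other way, at 29.7 and 162 (2.45, 1.81 to 3.13). Cluster 5 held 204 of the 231 +/+ UMIs of Mertk and 277 of the 286 of Ptprm. There the single fl/fl cell had 7 UMIs of Mertk and 10 of Ptprm, at 1404 and 2006 CPM beside 1988 and 2699 CPM in the 11 +/+ cells. Sgip1, with 47 UMIs in +/+ and 0 in fl/fl, was at least 10.7-fold lower, taking 3 UMIs in the fl/fl sum as the limit of detection.

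Of the transcription factor genes of myeloid cells, Cebpb was at 1347 CPM in +/+ and 2838 in fl/fl (1.08, 0.97 to 1.18) and Id3 at 26.3 and 105 (2.00, 1.29 to 2.76). None of 20 measured lysosome and cathepsin genes passed either way (median -0.09), and none of 16 interferon response genes did (median 0.43). Of 8 measured MHC class II and costimulation genes, 1, the inhibitory ligand gene Cd274, was higher (1.58, 1.01 to 2.18). NADPH oxidase genes had a median of 0.40 over 7 genes, with Ncf4 higher (1.46, 1.14 to 1.78). Of all genes measured, 3.99 percent were higher and 5.2 percent lower, so 0 or 1 gene in lists this short says little. Of 8 measured cell cycle genes 4 were lower, beside 5.2 percent of all genes measured. Top2a was 1 of these, at 129 and 45.0 CPM (-1.52, -2.18 to -0.90). Cluster 4, with 8 +/+ and 2 fl/fl cells, held 111 of the 113 and 24 of the 27 UMIs of Top2a.

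Ly6c2-high members were also compared without the granule cells, at 31 +/+ and 29 fl/fl cells. Of 3739 genes measured, 143 were higher (3.82 percent) and 116 lower (3.1 percent). MHC class II and costimulation genes were higher, 7 of 9 measured, with H2-Eb1 at 32.5 CPM in +/+ and 755 in fl/fl (4.54, 3.63 to 5.62). In the members low in both C1q and Ly6c2 this was turned round, with H2-Eb1 at 5687 and 2624 CPM (-1.12, -1.30 to -0.93) and 8 of 10 such genes lower, where 4.7 percent of 4214 genes were higher and 5.62 percent lower. Cluster 3 was spread differently over these ranges. Of its cells, 1 +/+ and 5 fl/fl were Ly6c2-high, and 8 +/+ and 7 fl/fl were low in both. Within cluster 3, H2-Eb1 was at 6630 and 5988 CPM (-0.15, -0.30 to 0.00), and H2-Aa at 6834 and 5532 (-0.30, -0.46 to -0.15). Both genes led that cluster, so likeness within it is partly built in. Ly6a, the gene of the antigen Sca-1, was at 112 and 579 CPM in cluster 3 (2.37, 1.46 to 3.43), and had 6 and 3 UMIs in cluster 1 (-0.24, -2.87 to 1.99).

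Cluster 1 had the most cells for a comparison between the libraries, with 34 and 22 classical monocyte-like cells. Of 3671 genes measured, 88 were higher in fl/fl (2.4 percent) and 102 lower (2.78 percent), and the median was 0.01. Lineage genes stood close: Csf1r was at 375 CPM in +/+ and 382 in fl/fl (0.03, -0.42 to 0.46), Fn1 at 1191 and 1081 (-0.14, -0.39 to 0.11), and Chil3 at 1480 and 1785 (0.27, 0.06 to 0.48). Csf1r helped to choose the members, and Fn1, Chil3 and Ly6c2 are leading genes of this cluster. Likeness in these genes is therefore partly built in. Ly6c2 was at 2197 and 3216 CPM (0.55, 0.39 to 0.71) and Plac8, a small protein of monocytes, at 5531 and 8335 (0.59, 0.49 to 0.69), both below the 2-fold limit. Apoe was at 1695 and 285 CPM (-2.57, -3.01 to -2.16). The heat shock gene Hspa1a was at 305 and 43.0 CPM (-2.82, -4.08 to -1.79), and the chemokine genes Cxcl10 at 244 and 59.2 (-2.05, -3.11 to -1.13) and Ccl4 at 403 and 151 (-1.42, -2.07 to -0.82). Heg1, a gene of an adhesion receptor, had 2 UMIs in +/+ and 20 in fl/fl (4.08, 2.04 to 7.22).

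Apoe was lower in the fl/fl sum of all members and in several clusters, where single cells can weigh heavily. Summed over all members it was at 2367 CPM in +/+ and 929 in fl/fl (-1.35, -1.49 to -1.21). By cluster it was at 29247 and 11532 CPM in cluster 0 (-1.34, -1.58 to -1.11) and at 3787 and 572 in cluster 3 (-2.73, -3.10 to -2.37). In cluster 3, 1 +/+ cell held 246 UMIs of lipid handling genes, beside a median of 22 there. Of the cells of cluster 1, 4 +/+ and 1 fl/fl were C1q-high. The weight of single cells was not read in clusters 0, 1 and 3. Cluster 2 had 9736 and 9745 CPM without its hemoglobin-loaded cells (0.00, -0.36 to 0.35), and 9238 and 4728 with them (-0.97, -1.32 to -0.63). In cluster 6 it was at 3448 and 739 CPM (-2.22, -2.70 to -1.73), but the ratio was -0.24 without the highest cell of each library. Apoe RNA was also lower in fl/fl cells that had been chosen for other lineages, at 22.3 and 4.21 CPM in T cells (-2.41), 339 and 204 in B cells (-0.73) and 312 and 45.1 in dendritic cells (-2.79). In T cells, free RNA is a possible source of such counts, and Lyz2 there was at 136 and 37.1 CPM and C1qa at 8.48 and 1.56. The part of free RNA in the Apoe values was not tested.

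Cxcl9, an interferon-gamma-induced chemokine gene, had 5 UMIs in +/+ and 59 in fl/fl members (5.71 and 98.4 CPM, 4.11, 2.80 to 5.78). Most came from cluster 0, where 9 +/+ cells had 1 UMI and 9 fl/fl cells had 33, of which no cell held more than 11 (55.6 and 1875 CPM, 5.08, 2.50 to 10.42). In cluster 3 there were 2 UMIs in 13 cells and 21 in 16 cells, 13 of them in 1 cell (2.90, 0.87 to 6.04). Cluster 0 also differed in Lyz2, at 61941 and 33063 CPM (-0.91, -1.05 to -0.76), and in Cd4, with 16 and 4 UMIs (-1.97, -4.01 to -0.34). Timd4 had 6 and 17 UMIs there (1.53, 0.12 to 3.16), while C1qa was close, at 5505 and 4772 CPM (-0.21, -0.64 to 0.23).

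The series asks how KMT2D controls the purinergic channel P2X7 in Treg cells, so both genes were read in the members. P2rx7, the gene of that ATP-gated channel, had 28 UMIs in +/+ and 24 in fl/fl members (31.97 and 40.02 CPM, 0.32, -0.53 to 1.16). In T cells it was at 60.1 and 39.2 CPM (-0.62). Kmt2d (chromosome 15, 98831669 to 98871204, minus strand) had 47 and 22 UMIs in members (53.7 and 36.7 CPM, -0.55, -1.35 to 0.21), and its ratio in T cells was -0.12. Both member intervals include equality. The lower bound for P2rx7, -0.53, lies above the T cell ratio, and the interval for Kmt2d holds that of the T cells, but the difference between members and T cells was not tested. A 3' count reads the end of the transcript, so it need not show the loss of floxed exons. Of 4 measured purinergic genes, 2 were lower, beside 5.2 percent of all genes measured. These were Entpd1, the ectonucleotidase CD39, at 118 and 45.0 CPM (-1.39, -2.05 to -0.76) and Adk, adenosine kinase, at 93.6 and 46.7 (-1.0, -1.68 to -0.37). P2rx4 was at 94.8 and 63.4 CPM (-0.58, -1.17 to -0.01).

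Genes that differed most between the T cells of the libraries were then followed in the members. This list was chosen on these libraries, so it is not independent evidence. Of 8 measured, 0 were at least 2-fold higher and 1 lower, beside 3.99 and 5.2 percent of all genes measured. That one was Apobec3, a cytidine deaminase that restricts retroviruses (chromosome 15, 79891659 to 79915906, plus strand), at 130 CPM in +/+ and 26.7 in fl/fl members (-2.29, -3.14 to -1.53). It was lower in C1q-high members (-1.84, -4.20 to -0.16), in Ly6c2-high members without granule cells (-1.67, -3.01 to -0.50) and in members low in both (-3.17, -5.62 to -1.30). T cells had 154 and 21.4 CPM (-2.85), and B cells, neutrophils and dendritic cells had ratios of -3.78, -3.41 and -2.79. Slc15a2, a peptide transporter, had 29 and 4 UMIs in members (-2.31, -4.28 to -0.80), beside -1.93 in T cells.

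Other genes of that list had no like ratio in the members, though Plac8 was higher in both, by less in members. Cybb, the catalytic chain of the phagocyte NADPH oxidase, was at 973 and 1547 CPM in members (0.67, 0.53 to 0.81) and at 40.1 and 11.5 CPM in T cells (-1.80). Cd83, an activation marker, was at 145 CPM in both libraries of members (0.00) and had -1.91 in T cells. Ebi3, a subunit of interleukin 35, had 22 and 18 UMIs (0.26) beside -3.05 in T cells, and Plac8 was at 3875 and 5186 CPM (0.42) beside 2.10 in T cells. So Apobec3 and Slc15a2 were lower in every set of cells compared, and Cybb, Cd83, Ebi3 and Plac8 had ratios in the members unlike those in T cells. With 1 library a genotype these differences were not tested.

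**Figure D5:**
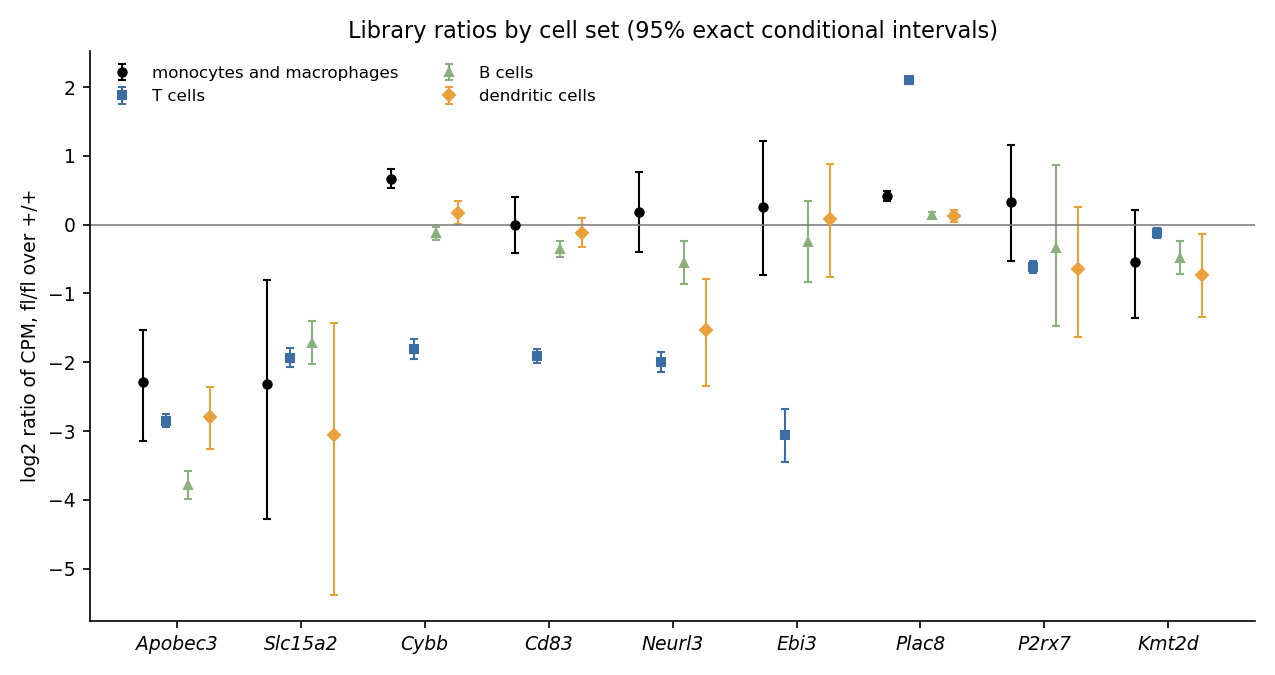
log2 ratio of CPM, fl/fl over +/+ (y axis), of 9 genes in monocytes and macrophages, T cells, B cells and dendritic cells, with 95% exact conditional intervals as error bars. Apobec3 and Slc15a2 lie below 0 in all 4 sets, whereas Cybb and Cd83 lie well below 0 in T cells alone.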

How the data were processed

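Droplet-based 10x Genomics 3' libraries of sorted splenic cells were measured, 1 per genotype. Per the submitters' processing notes, fastp, Cell Ranger 7.1.0 and Seurat 4.1.1 were used with builds mm10 and GRCm38. Values in the deposited matrices are raw UMI counts per gene and barcode for 31253 genes, and the filters behind the 7947 and 8784 barcodes deposited by the authors are not given in the sources used here. Barcodes with at least 500 genes and at most 10% mitochondrial counts were kept.

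Members were chosen by the counts given above, and the members and gene lists were chosen with earlier results of these data known. Counts were summed per library and set of cells and scaled to CPM. Ratios have 95% exact conditional binomial intervals and shares have Clopper-Pearson intervals. A gene counted as higher or lower at a ratio of at least 2, an interval excluding 1 and 50 CPM in either library. T cells had 2 or more Cd3 UMIs and no Cd79a. The calculation was tested on simulated data. Members were clustered with scanpy 1.11.5 (1500 variable genes, 15 principal components, 10 neighbours, Leiden resolution 1.0). The automatic threshold of a Scrublet-like caller marked 1 and 2 barcodes, which was taken as not working, and Otsu's method was used in its place (200 and 188 barcodes).

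Named genes are those of the member rule, the 12 highest and 12 lowest ratios that held without the top cell, after thinning to 2000 UMIs, with cells weighted alike and in the C1q range holding most counts, and list members. Genes named for 1 cluster or for Malat1 status, the granule and hemoglobin splits and the comparisons within clusters were chosen after their values were seen. Alternatives were other scaling, thinning, filters, CPM floors, ratios and cuts. The values of 1 listed gene and the counts over its list are not reported here.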

Additional observations from a re-analysis of the deposited data

How the results depend on the processing

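No paired analysis was possible because the groups share only 1 replicate number and each has 1 library. The numbers of genes at least 2-fold higher and lower in fl/fl members, 158 and 206, depended on the limits. They were 261 and 486 with a floor of 20 CPM, 94 and 92 with 100 CPM, and 335 and 620 with none, and 414 and 456 at a ratio of 1.5 and 49 and 85 at 3. Lower genes numbered 424 in C1q-high cells only, 116 in Ly6c2-high cells without granule cells and 312 with C1q-high and C1q-low cells weighted alike. Cluster 1 alone gave 88 higher and 102 lower. The C1q-high shares (49.5% and 23.9%) were 33.3% and 13.6% with a minimum of 20 UMIs, 34.2% and 10.8% after thinning, and 32.4% and 10.96% among members with Malat1, and the fl/fl share was the lower in each. Members with Malat1 were 0.95% of +/+ and 0.845% of fl/fl cells. Of the values of named genes under these alternatives, 282 stayed within counting error in the same direction, 42 moved further and 2 reversed. Those 2 were Ly6a (-0.24) and Dusp16 (-1.82) in cluster 1. Settings that changed few cells, such as leaving out called doublets, kept all 23 values. The highest and lowest ratios were named only if their direction held without the top cell, after thinning and with cells weighted alike. Fewer stayed within narrower sets: 13 stayed and 7 moved in C1q-high cells, and 5 and 11 in cells low in both. In Ly6c2-high cells without granule cells 2 stayed and 9 moved, and in cluster 1 alone 5 moved and 2 reversed. The cause was not tested. Depth limits the C1q-high cells most, and clusters 2, 4, 5 and 6 rest on 8, 2, 1 and 3 cells in one of the libraries.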

Other observations

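Ly6i, of the same gene family as Ly6c2, had 10 and 78 UMIs in members (3.51, 2.56 to 4.63 as a log2 ratio of fl/fl over +/+), 56 of the 78 in fl/fl cells low in both C1q and Ly6c2. Il1r2, the decoy receptor for interleukin 1, had 49 and 7 UMIs (-2.26, -3.65 to -1.11), and Lpl, lipoprotein lipase, 93 and 16 (-1.99, -2.86 to -1.22). Tlr13, a receptor for bacterial ribosomal RNA, had 22 and 41 (1.44, 0.66 to 2.26). Gzma, a granule protease gene of natural killer cells, had 1 UMI in +/+ and 38 in fl/fl members, but a single Ly6c2-high cell held 37 of these. The summed natural killer cell markers were at 20.6 and 120 CPM.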
